A study of Mus musculus with 5 samples.

Results

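The protein-coding genes *Nck2*, *Mast4* and *Slc7a15* held the 5 kb tiles with the largest gains of CpG methylation inside a gene when *Tet2*-/- leukaemic blasts were compared with *Tet2*+/+ blasts. They are 3 of 21728 protein-coding genes, and with 20 kb on each side they cover 922 windows of 1 kb and 9922 CpG dyads (a CpG read on both strands) of 2526718 windows and 21353092 dyads on the autosomes and X. Whole-genome bisulfite sequencing was done on 5 libraries of AML blasts sorted from mouse bone marrow (strain C57BL/6 in the labels) as live DAPI-CD45.2+CD3-B220-Ter119- cells, that is donor-derived cells that were neither lymphoid nor erythroid. All 5 libraries were Cebpa-/p30, with 1 *Cebpa* allele lost and the other making only the short p30 isoform. Libraries 23 and 24 were *Tet2*+/+, and libraries 5, 7 and 8 were *Tet2*-/-. According to the study's methods, donor marrow was transplanted into lethally irradiated young adult female recipients, and alleles were deleted in the recipients afterwards by Poly(I)-Poly(C) injection, which induces Mx1-Cre. The recipients were congenic C57BL/6 J.SJL mice. The host may have kept cells of its own outside the CD45.2 gate. The labels call the samples biological replicates.

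TET2 is a dioxygenase that oxidises 5-methylcytosine to 5-hydroxymethylcytosine and beyond, which starts the removal of the methyl group, and it is known to work mainly at distal regulatory DNA in blood cells. CpGs inside gene bodies are usually methylated, and unmethylated stretches there often mark regulatory elements or CpG-rich exons. Bisulfite reads cannot separate the methylated from the hydroxymethylated base, so both are counted as methylated here. In a bulk sample, a level also cannot tell fewer cells with a methylated allele from fewer methylated CpGs per cell. *Nck2* encodes an adaptor with SH3 and SH2 domains that couples phosphotyrosine signals to the actin cytoskeleton. *Mast4* encodes a microtubule-associated serine/threonine kinase, and *Slc7a15* belongs to the SLC7 family of amino acid transporters.

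Each library held 63111735 to 110752967 CpG calls, or 2.96 to 5.19 calls per dyad, so that single dyads are imprecise and levels were taken over windows as methylated calls over all calls. Genome-wide methylation was 67.3% and 62.3% in *Tet2*+/+ and 70.9%, 74.8% and 68.4% in *Tet2*-/-, and the median difference over all tested 1 kb windows was 5.74 percentage points. The sort was reflected in promoter methylation, with a median per library of 5.18 to 13.1% over 8 myeloid markers, 62.8 to 87.1% over 8 lymphoid markers and 32.9 to 53.4% over 6 erythroid markers. The part of these marker levels in the results was not tested. In *Tet2* itself, a stretch of 36 dyads (chr3:133466411-133468352) had 128 and 151 calls in *Tet2*+/+ and 0 calls in each *Tet2*-/- library.

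The genes were selected on the difference in methylation between the genotypes in 5 kb tiles, so that difference is given as a description, with no test. Among called 5 kb tiles in which the groups did not overlap, the *Mast4* tile (chr13:102830001-102835000) ranked first with 67.0 points, the *Nck2* tile (chr1:43550001-43555000) next with 60.9 points and the *Slc7a15* tile (chr12:8570001-8575000) after it with 59.1 points. Just outside this choice stood a tile on chr15:85665001-85670000 that overlaps no protein-coding gene, with 59.0 points, and a tile in *Smg6* with 58.7 points. A gain was defined as the run of consecutive 1 kb windows, each with at least 5 calls per library, a difference of at least 30 points and no overlap of the groups, that holds the strongest window of the tile. Each of the gains spanned 2000 bp. They lay at chr1:43553001-43555000 in *Nck2*, chr13:102834001-102836000 in *Mast4* and chr12:8572001-8574000 in *Slc7a15* (GRCm38), and the *Mast4* gain ran past the end of its tile.

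The sequence of the *Nck2* and *Slc7a15* gains is shown by the 300 bases of each that hold the most dyads called in all 5 libraries, because these carry the levels compared below. They were read from the GRCm38 top strand of RefSeq, and capitals mark CpGs.

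Nck2, chr1:43553984-43554283: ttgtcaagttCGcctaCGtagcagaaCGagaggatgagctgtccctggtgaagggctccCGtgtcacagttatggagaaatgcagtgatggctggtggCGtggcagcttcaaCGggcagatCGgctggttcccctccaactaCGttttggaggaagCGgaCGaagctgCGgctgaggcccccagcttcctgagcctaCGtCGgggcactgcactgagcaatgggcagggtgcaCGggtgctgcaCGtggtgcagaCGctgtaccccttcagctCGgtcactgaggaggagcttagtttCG

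Slc7a15, chr12:8573165-8573464: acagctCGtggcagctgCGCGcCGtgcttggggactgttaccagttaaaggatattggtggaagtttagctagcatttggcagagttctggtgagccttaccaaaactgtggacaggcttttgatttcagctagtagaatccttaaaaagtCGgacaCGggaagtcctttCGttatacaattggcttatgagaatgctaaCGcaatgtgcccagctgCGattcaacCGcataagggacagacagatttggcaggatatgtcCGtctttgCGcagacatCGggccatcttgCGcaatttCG

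The *Nck2* stretch has 18 CpGs, lies wholly in a coding exon and holds no soft-masked repeat. Its level was 1.87% and 2.27% in *Tet2*+/+ and 94.5%, 96.8% and 87.0% in *Tet2*-/-. The *Slc7a15* stretch has 15 CpGs and is 48.3% soft-masked, and its level was 16.7% and 4.35% in *Tet2*+/+ and 85.7%, 100% and 84.6% in *Tet2*-/-. In both stretches the highest *Tet2*+/+ library lay below the lowest *Tet2*-/- library, and both lie in gains that were defined by such a separation.

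The *Nck2* gain (gene ENSMUSG00000066877.11, plus strand) was the sharpest. Over its 65 dyads, methylation was 20.1% in library 23 (293 calls, 95% Wilson interval 15.9 to 25.1%) and 20.7% in library 24 (217 calls, 15.9 to 26.6%). It was 91.7% in library 5 (312 calls, 88.1 to 94.3%), 96.7% in library 7 (246 calls, 93.7 to 98.3%) and 89.4% in library 8 (142 calls, 83.3 to 93.5%). These intervals, like those given for the other genes, cover counting error only. They treat calls from the same read as independent, so they are too narrow. The *Tet2*+/+ libraries were nearly alike and far below all *Tet2*-/- libraries, with means of 20.4% ± 0.42 (SD, n = 2) and 92.6% ± 3.75 (SD, n = 3) and a difference of 72.2 points. The choice of the gene and the definition of a gain favour this distance between the groups.

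A search over single dyads for the interval with the highest binomial likelihood narrowed the *Nck2* gain to 914 bp (chr1:43553726-43554639) with 49 dyads. Within it, methylation was 2.59% and 6.29% in *Tet2*+/+ and 92.0%, 97.4% and 89.1% in *Tet2*-/-, a difference of 88.4 points. All 32 dyads with at least 5 calls in each group were higher in *Tet2*-/-, with a median of 0% in *Tet2*+/+ and 93.5% in *Tet2*-/-. The interval was itself found from this difference, with calls summed over libraries. Such counts of dyads therefore describe the intervals of the genes and are no independent support. The interval was 914 to 963 bp when any library was left out. In GENCODE vM21 it closely frames exon 4 of the 5 exons of Nck2-201 (chr1:43553861-43554582, 722 bp, all coding), and 45 of its 49 dyads lie in that exon. The exon holds 722 of the 1140 coding bases of Nck2-201.

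The other exons of Nck2-201 behaved differently. Exon 1, at the main start of the gene, had 0% methylation in every library, from 43 to 268 calls. Were all calls independent, they would allow a level of up to 6.98% in library 24 and up to 1.12% in library 7. The 47 dyads of exon 1 lie within 277 bp, so 1 read gives several calls and the true limits are higher. Exons 2, 3 and 5 were methylated in both genotypes, with means of 100% and 92.0%, 91.2% and 94.9%, and 85.5% and 93.0% in *Tet2*+/+ and *Tet2*-/-. Exon 4 was at 2.49% and 5.06% in *Tet2*+/+ and at 91.6%, 97.1% and 88.0% in *Tet2*-/-. Exons 2 and 3 hold only 3 and 7 dyads, so their levels are rough.

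**Figure D1:**
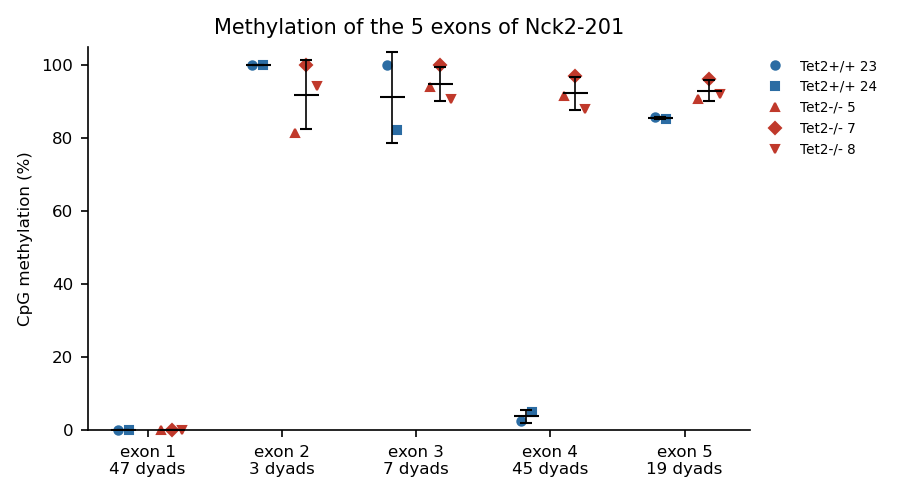
CpG methylation (%) of the 5 exons of Nck2-201 in each library, with blue points for Tet2+/+ and red points for Tet2-/-; black bars are group means ± SD. Exon 1 is at 0% in all libraries, exons 2, 3 and 5 are high in both groups, and exon 4 is at 3.78% in Tet2+/+ against 92.3% in Tet2-/-.

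In *Tet2*+/+, methylation rose again within 1 kb on both sides, while in *Tet2*-/- it was high throughout. The 1 kb before exon 4 was at 64.5% ± 11.3 in *Tet2*+/+ (SD, n = 2) and 92.2% ± 0.87 in *Tet2*-/- (SD, n = 3), and the 1 kb after it at 68.6% ± 7.76 and 90.3% ± 4.17. The first 1 kb window past the gain (chr1:43555001-43556000) was at 89.3% and 92.5%, a difference of 3.27 points. Over 20 kb on both sides, the level was 80.6% ± 2.91 in *Tet2*+/+ and 83.8% ± 3.86 in *Tet2*-/-, so the groups overlapped there. Not every low window of the gene gained. The window chr1:43562001-43563000, named after its values were seen, was at 18.9% and 21.4% in *Tet2*+/+ and at 19.0%, 15.4% and 14.8% in *Tet2*-/-.

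The *Mast4* gain (gene ENSMUSG00000034751.16, minus strand) was less sharp and rested on fewer reads. Over 31 dyads, methylation was 33.3% in library 23 (60 calls, 22.7 to 45.9%) and 25% in library 24 (68 calls, 16.2 to 36.4%). It was 71.4% in library 5 (91 calls, 61.4 to 79.7%), 94.4% in library 7 (108 calls, 88.4 to 97.4%) and 89.4% in library 8 (47 calls, 77.4 to 95.4%). The groups did not overlap, which the definition of a gain requires of each window. Their means were 29.2% ± 5.89 (SD, n = 2) and 85.1% ± 12.1 (SD, n = 3), but both groups spread more than in *Nck2*.

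The windows of the *Mast4* gain differed from each other. In the first (chr13:102834001-102835000, 21 dyads) the level was 36.7% and 5.13% in *Tet2*+/+ and 84.6%, 93.7% and 88.6% in *Tet2*-/-. In the second (chr13:102835001-102836000, 10 dyads) it was 30% and 51.7% against 53.8%, 95.6% and 91.7%. Library 24 and library 5 nearly met in the second window, and without library 23 the gain shrank to 1000 bp. The next window was high in both groups, at 79.5% ± 7.88 and 87.4% ± 2.96.

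On its other side the *Mast4* gain had no edge that could be seen. Its left end lies in a block of 7152 bp (chr13:102827101-102834252) that is soft-masked as repeat almost without a break. In this block 28 of 173 dyads had any call and each library had 11 to 47 calls, some of which fall inside the gain. The window just before the gain had 0 to 2 calls per library. The planned dyad search within 20 kb ended elsewhere in the gene (chr13:102848793-102850010, 11.96 points). The search within 3 kb, added after seeing the data, gave 1859 bp (chr13:102833746-102835604), and its left part lies in the repeat block. Without library 23 the interval was 320 bp. The tile that ranked first in the genome thus held 32 to 63 calls per library, against 188 to 401 in the *Nck2* tile.

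The *Mast4* gain lies in an intron of 43260 bp (chr13:102810571-102853830), intron 5 of 28 in Mast4-207 and intron 3 of 27 in Mast4-201. No exon of *Mast4* in GENCODE vM21 overlaps the gain, and exons of other genes were not searched for there. All 13 dyads of the interval with at least 5 calls per group were higher in *Tet2*-/-, with medians of 20% and 90%, which the choice of the interval favours. The flanks of 20 kb beside the gain were at 74.8% ± 0.80 in *Tet2*+/+ and 82.1% ± 5.53 in *Tet2*-/-.

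The *Slc7a15* gain (gene ENSMUSG00000020600.13, minus strand) was well covered. Over 51 dyads, methylation was 18.2% in library 23 (236 calls, 13.8 to 23.6%) and 6.47% in library 24 (170 calls, 3.65 to 11.2%). It was 76.2% in library 5 (240 calls, 70.5 to 81.2%), 86.6% in library 7 (202 calls, 81.3 to 90.7%) and 68.3% in library 8 (126 calls, 59.7 to 75.7%). *Tet2*+/+ averaged 12.3% ± 8.31 (SD, n = 2) against 77.0% ± 9.22 (SD, n = 3) in *Tet2*-/-. The gap between the groups was wider than the spread within either, which the choice of the gene and the definition of a gain favour.

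The 2 windows of this gain were unequal in *Tet2*-/-. In chr12:8572001-8573000 (26 dyads) the *Tet2*-/- libraries were at 67.3%, 80.3% and 52.2%, and in chr12:8573001-8574000 (25 dyads) at 92.0%, 97.3% and 86.4%. The *Tet2*+/+ libraries were low in both windows, at 14.96% and 3.96% in the first and 22.02% and 10.1% in the second. Library 8, the shallowest, was the lowest *Tet2*-/- library in both.

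The *Slc7a15* gain ended differently on the left and on the right. On the left, the window chr12:8571001-8572000 (5 dyads) was at 25% ± 15.2 in *Tet2*+/+ and 39.9% ± 8.88 in *Tet2*-/-, low in both groups. One window further left, chr12:8570001-8571000 (5 dyads) met the criteria again with 49.0 points. On the right, the window chr12:8574001-8575000 rose to 71.4% ± 5.13 and 93.0% ± 6.85. The planned dyad search within 20 kb gave 18225 bp with 43.2 points. The search within 3 kb, added after seeing the data, gave 3128 bp (chr12:8570369-8573496), which was 2293 to 3309 bp when any library was left out. This interval reached further left than the gain and ended before the right end of the gain. Of the 45 dyads of the 3128 bp interval with at least 5 calls per group, 42 were higher in *Tet2*-/-, with medians of 12.5% and 77.8%. The choice of the interval favours such a count.

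This gain lies in intron 1 of 6 of Slc7a15-201 (46827 bp, chr12:8552018-8598844). The coding transcripts Slc7a15-202 and Slc7a15-204 start at chr12:8539545, so the gain lies upstream of them and not inside them. A predicted RefSeq exon of the non-coding RNA 5033421B08Rik on the opposite strand (chr12:8572210-8572403, 5 dyads) lies inside the gain. The level of this exon was 27.6% and 3.45% in *Tet2*+/+ and 66.7%, 82.9% and 50% in *Tet2*-/-. The flanks of 20 kb were at 75.9% ± 1.12 in *Tet2*+/+ and 84.7% ± 4.68 in *Tet2*-/-.

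**Figure D2:**
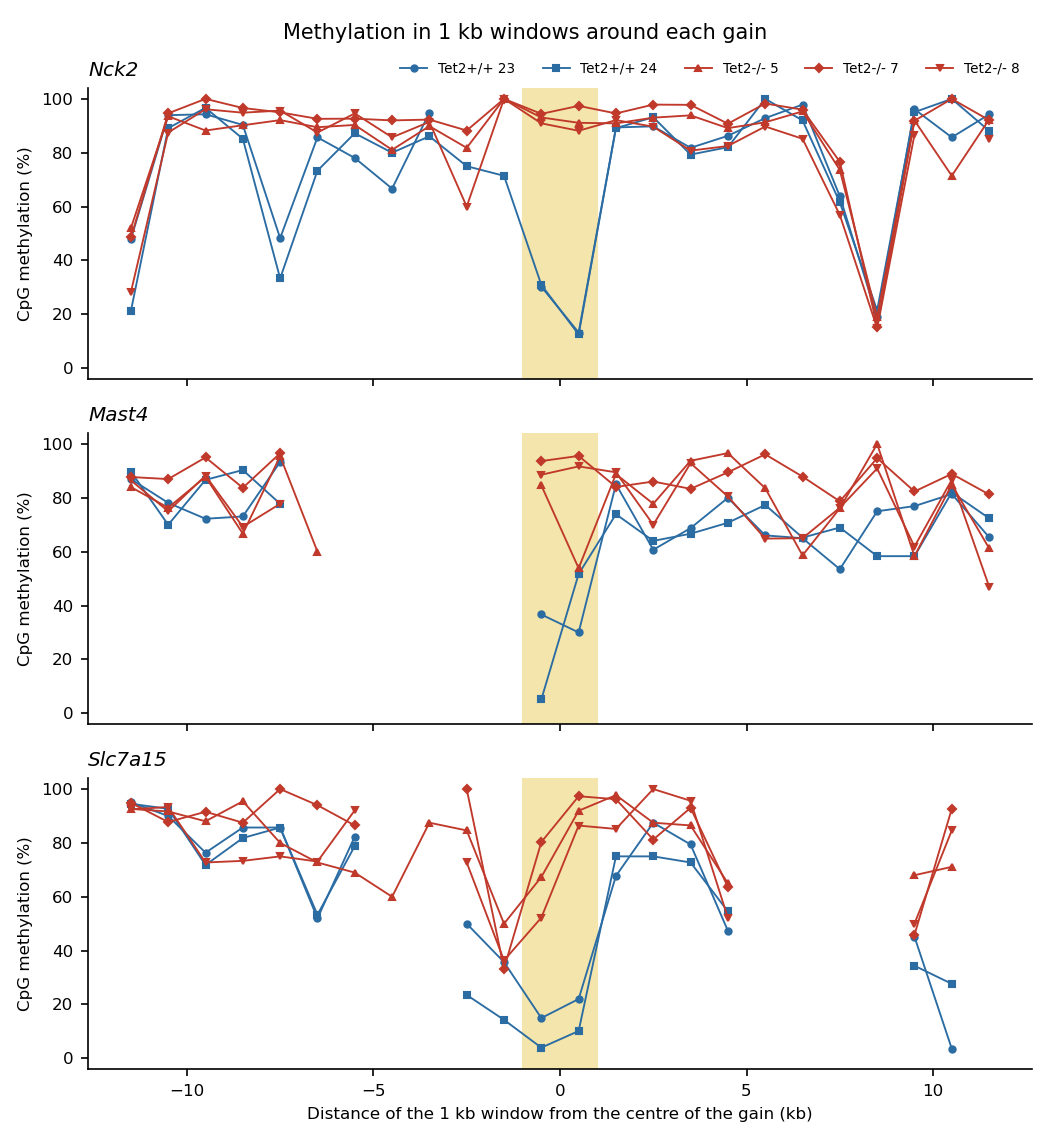
CpG methylation (%) in 1 kb windows against the distance (kb) from the centre of each gain, one line per library, with blue for Tet2+/+ and red for Tet2-/-; windows with under 5 calls in a library are left blank and the gain is shaded. Both Tet2+/+ libraries dip inside the shaded 2000 bp and lie below all Tet2-/- libraries there, of which library 5 in Mast4 (53.8%) and libraries 5 and 8 in Slc7a15 (67.3% and 52.2%) dip less deeply, and the blank stretch left of the Mast4 gain is the repeat block with few calls.

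**Figure D3:**
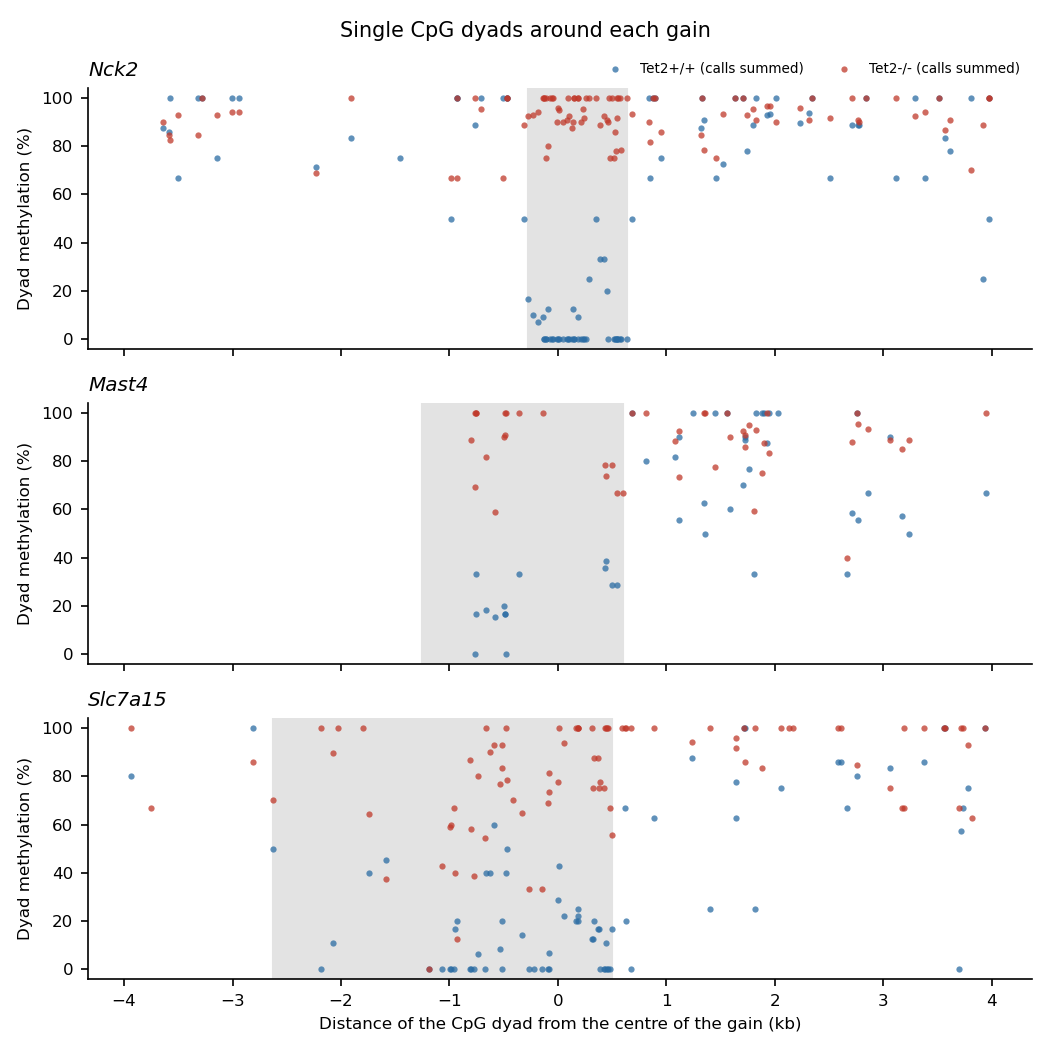
Methylation (%) of single CpG dyads with at least 3 calls in a group, calls summed over the libraries of Tet2+/+ (blue) and Tet2-/- (red), against the distance (kb) from the centre of each gain; grey marks the interval of highest likelihood. In Nck2 most blue points lie near 0% over 914 bp, while in Slc7a15 most stay low over 3128 bp. Among dyads of these intervals with at least 5 calls per group, the highest Tet2+/+ levels are 33.3% in Nck2 and 60% in Slc7a15.

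In *Tet2*-/- the gains were thus at 92.6%, 85.1% and 77.0%, beside 83.8%, 82.1% and 84.7% in their flanks. In *Tet2*+/+ the gains were at 20.4%, 29.2% and 12.3%, beside 80.6%, 74.8% and 75.9%. The genotypes differed far less in the flanks than in the gains, with 3.14, 7.34 and 8.76 points for *Nck2*, *Mast4* and *Slc7a15*, beside a median of 5.74 points over all tested windows. The choice of the genes and the definition of a gain favour this contrast.

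**Figure D4:**
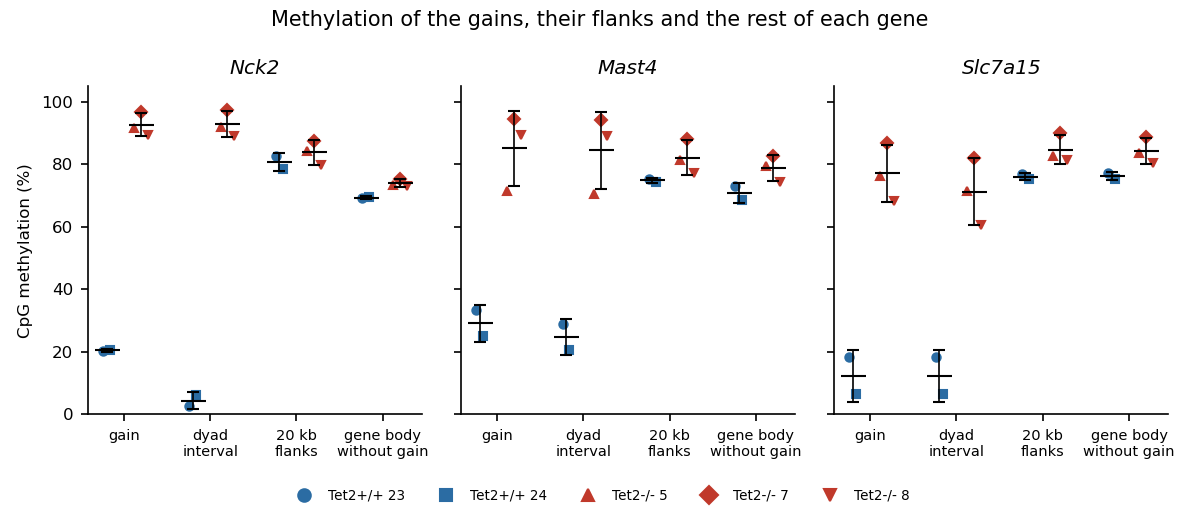
CpG methylation (%) of each library in the gain, the interval of highest likelihood, both 20 kb flanks and the gene body without the gain, for the 3 genes; colours and symbols are libraries, and black bars are group means ± SD. The groups are far apart in the gains (20.4% against 92.6% in Nck2) and in the intervals of highest likelihood, and closer in the flanks and the rest of the gene.

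Base composition and repeats were no criteria of the choice, which was limited to tiles inside genes, and the minimums of calls favour stretches with more CpGs. CpGs were denser in each gain than in its flanks, with 32.5 against 8.65 per kb in *Nck2*, 15.5 against 12.03 in *Mast4* and 25.5 against 11.1 in *Slc7a15*. The genome-wide median is 7 dyads per 1 kb window. The observed over expected CpG ratio was 0.49, 0.39 and 0.48 in the gains and 0.18, 0.26 and 0.24 in the flanks, and it reached 0.63 with 58.4% GC in the *Nck2* interval of 914 bp. Repeats covered 10.8% of the *Nck2* gain, 29.95% of the *Mast4* gain and 51.8% of the *Slc7a15* gain. The nearest annotated transcript start of any type was 5273 bp from the *Nck2* gain, 33080 bp from the *Mast4* gain and 22380 bp from the *Slc7a15* gain.

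Of the 6 windows of the gains, 5 belonged to a class of 4060 windows inside protein-coding genes that had at least 20 dyads, a *Tet2*+/+ mean under 40% and no annotated start within 2 kb. In that class 797 windows, or 19.6%, met the criteria of a gain, and the median difference was 12.5 points. The 5 windows of the members stood at 57.2 to 79.4 points, which the choice of the genes fixes.

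Motifs of blood transcription factors were searched on both strands in the 6 windows and in all 2558957 windows of 1 kb without unknown bases. The C/EBP palindrome TTGCGCAA was found in 1 of the 6 windows, in *Slc7a15* at chr12:8573452-8573459 near the end of the sequence printed above, and 0.0822% of all windows hold it. The CpG inside it had 0 of 8 and 0 of 1 methylated calls in *Tet2*+/+, and no call, 2 of 2 and 2 of 2 in *Tet2*-/-, too few to set a level. The looser C/EBP form TTNNGCAA, which includes the palindrome, was found in both *Slc7a15* windows, and 38.9% of all windows hold it. The PU.1 form GAGGAAGT was found in 1 *Nck2* window, beside 5.97% of all windows. The GATA form AGATAA was found in 1 *Nck2* window and both *Mast4* windows (50.6% of all windows), the RUNX form TGTGGT in 1 window of each gene (52.7%), and the AP-1 form TGANTCA in 1 window each of *Nck2* and *Slc7a15* (26.6%). No motif of the 6 was found in the gains of all 3 genes other than the RUNX form. A match is a run of letters and not a binding site.

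Measures that did not choose the genes were compared between genotypes by exact two-sided permutation tests over the libraries, whose smallest p is 0.1. Coverage of the *Nck2* gain relative to its 20 kb flanks was 103% and 82.3% in *Tet2*+/+ and 80.1%, 63.2% and 61.2% in *Tet2*-/- (exact p = 0.2). Each *Tet2*+/+ library lay above all *Tet2*-/- libraries there, library 24 by little. In *Mast4* it was 69.5% and 83.7% against 78.7%, 101% and 72.9% (exact p = 0.7). In *Slc7a15* it was 192% and 147% against 141%, 128% and 135%, where again each *Tet2*+/+ library lay above all *Tet2*-/- libraries (exact p = 0.1). The *Slc7a15* difference of -34.8 percentage points was -12.1 without library 23 and -57.5 without library 24. The part of this coverage in the methylation levels was not tested.

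Both strands were summed to choose the tiles, so their levels in the gains are no independent support. The top strand minus the bottom strand differed between the genotypes by 3.31 points in *Nck2* (exact permutation p = 0.8), 27.5 points in *Mast4* (exact permutation p = 0.1) and -6.68 points in *Slc7a15* (exact permutation p = 0.6). With 1 library left out these differences ran from -5.60 to 12.2 points in *Nck2*, 18.3 to 32.7 in *Mast4* and -12.6 to -0.802 in *Slc7a15*, where the value nearest to 0 was that without library 23. In *Mast4*, library 5 was at 81.2% on the top strand and 48.1% on the bottom strand, close to library 23 at 40.9%, where the thinnest library had 13 calls. On the bottom strand alone the *Mast4* difference was 36.5 points, in place of 55.9.

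Outside the gains, 2 of 155 tested 1 kb windows of *Nck2* with its flanks met the criteria (1.29%), 20 of 605 of *Mast4* (3.31%) and 4 of 97 of *Slc7a15* (4.12%), where 3.28% of 2044969 windows in the genome did. One of the *Slc7a15* windows lies in the tile that chose the gene, and outside that tile 3 of 94 windows met them (3.19%). In *Nck2* the windows outside the gain were chr1:43546001-43547000 (6 dyads), at 48.3% and 33.3% in *Tet2*+/+ and 92.1%, 95% and 95.7% in *Tet2*-/-, and chr1:43444001-43445000 (14 dyads), at 30.6% and 35.5% against 69.9%, 76.1% and 63.3%. The latter lies at the 5′ end of the gene and holds the start of Nck2-205. All tested windows outside the *Nck2* gain, these included, had a median difference of 3.92 points, and 74.8% of them were higher in *Tet2*-/-. The number of windows outside the gain that met the criteria rose from 2 to 7 without library 23, 5 without library 24, 6 without library 5, 3 without library 7 and 4 without library 8. The share of all windows in the genome that met them in the same settings was 8.87%, 3.71%, 4.58%, 2.93% and 5.01%, and that of the *Nck2* windows 4.46%, 3.23%, 3.87%, 1.94% and 2.56%.

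In *Mast4*, the 20 windows outside the gain stood at 30.1 to 53.6 points. They were scattered along the gene, except chr13:102730001-102731000, which lies in the flank past its 3′ end. The median over all tested windows outside the gain was 5.87 points. The largest difference was in chr13:103175001-103176000 (11 dyads), at 17.3% and 23.9% in *Tet2*+/+ and 78.0%, 86.4% and 58.3% in *Tet2*-/-. The next, chr13:102736001-102737000 (28 dyads) near the 3′ end of the gene, was at 8.26% in library 23 and 70.6% in library 24, and at 93.7%, 93.8% and 88.5% in *Tet2*-/-. The *Tet2*+/+ libraries lay far apart there, and the difference of 52.5 points was 21.4 points without library 23, under the 30 points required. Of the 20 windows, 12 still met the criteria without library 24 and 12 without library 7. With 1 library left out, the number of *Mast4* windows outside the gain that met the criteria was 16 (2.64%, without library 7) to 51 (8.39%, without library 23), beside 2.93% and 8.87% of all windows in the genome.

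In *Slc7a15*, 4 windows outside the gain met the criteria. The largest, chr12:8583001-8584000 with 48 dyads, was at 3.57% and 27.7% in *Tet2*+/+ and 71.1%, 92.7% and 84.6% in *Tet2*-/-, with 13 calls in library 8. The others stood at 30.8 to 49.0 points over 2 to 8 dyads. The smallest, chr12:8550001-8551000 (2 dyads), fell from 30.8 points to 19.7 without library 23 and to 26.7 without library 7, under the 30 points required. With 1 library left out, the share of *Slc7a15* windows outside the gain and the choosing tile that met the criteria was 2.11% (2 of 95, without library 7) to 5.32% (5 of 94, without library 24), beside 2.93% and 3.71% of all windows in the genome. The median over all tested windows outside the gain was 3.96 points.

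**Figure D5:**
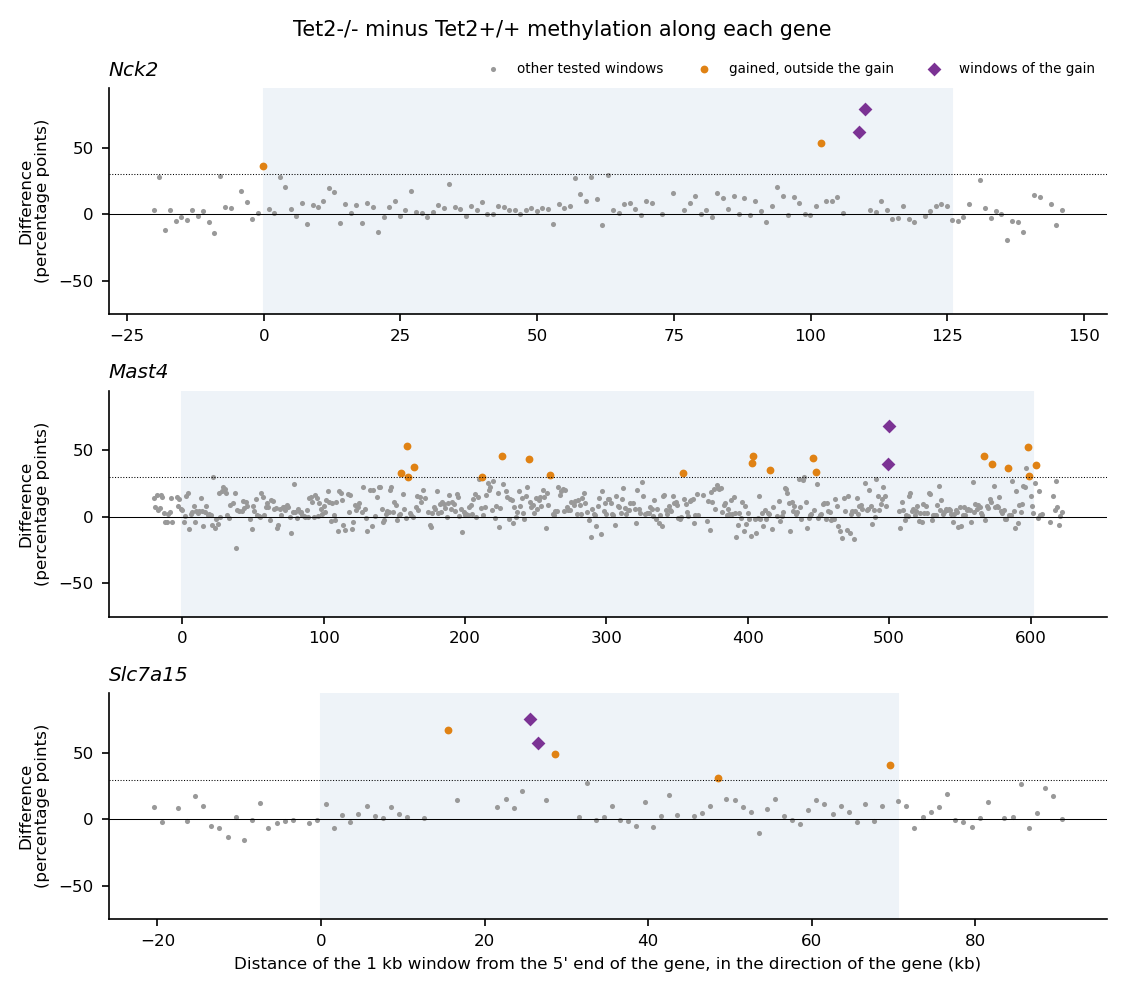
Difference in CpG methylation, Tet2-/- minus Tet2+/+ (percentage points), of each tested 1 kb window against its distance (kb) from the 5' end of the gene in its direction, with the gene body shaded and a dotted line at 30 points. Diamonds are the gains and orange points the other windows that met the criteria (2 in Nck2, 20 in Mast4 and 4 in Slc7a15).

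In 5 kb tiles, edgeR's quasi-likelihood test called 1 of 34 tiles of *Nck2*, 4 of 127 of *Mast4* and 2 of 22 of *Slc7a15* beside the tile that chose each gene, and 3.20% of 488658 tiles in the genome were called higher. All of these calls were higher in *Tet2*-/-. Without library 24 this count over the 3 genes fell from 7 to 1, without library 23 to 2 and without library 5 to 3. Over all tiles, the number called higher fell from 15620 to 296, 5018 and 6296 in these fits. In *Nck2* the called tile was the neighbour of the choosing tile, chr1:43545001-43550000, at 74.5% and 75.4% in *Tet2*+/+ and 89.1%, 93.8% and 93.0% in *Tet2*-/-, a difference of 17.05 points. In *Mast4* the 4 tiles differed by 15.9 to 34.0 points. The *Tet2*+/+ libraries 23 and 24 lay far apart in the tiles at both ends of this range. They were at 34.9% and 78.5% in chr13:102735001-102740000 (34.0 points) and at 89.8% and 65.5% in chr13:102750001-102755000 (15.9 points). They were close in chr13:102760001-102765000 (55.5% and 57.0%) and chr13:103175001-103180000 (58.1% and 53.4%). In *Slc7a15* they were chr12:8580001-8585000 with 39.99 points and chr12:8525001-8530000 with 16.1 points.

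The gene bodies as a whole were higher in *Tet2*-/- by 7.54 points in *Nck2*, 8.17 points in *Mast4* and 12.2 points in *Slc7a15*, where the median over 20688 gene bodies was 4.95 points. Without the windows of the gain, the differences were 4.56, 8.05 and 8.003 points. The 2000 bp of the gain thus carried part of the difference of the *Nck2* and *Slc7a15* bodies and little of that of *Mast4*, a gene of 602012 bp.

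Promoters, taken as 1000 bp on each side of a start, moved less than the gains, which were chosen for their difference. At the main *Nck2* start (Nck2-201, 146 dyads) the level was 4.59% ± 0.58 in *Tet2*+/+ and 9.59% ± 0.84 in *Tet2*-/-. At Nck2-205, which starts further upstream, it was 28.9% ± 5.57 and 51.2% ± 2.31. The *Mast4* transcript with the most coding bases (Mast4-207, 158 dyads at its start) was at 30.1% and 34.1% in *Tet2*+/+ and 59.0%, 16.4% and 30.2% in *Tet2*-/-, so the groups overlapped. The internal *Mast4* starts differed by 11.8 to 14.5 points, and the groups overlapped at Mast4-208, which had the largest of these differences, and at Mast4-212. The *Slc7a15* start furthest upstream (Slc7a15-201, 47 dyads) was methylated in both groups, at 84.9% ± 3.06 and 90.2% ± 3.62. The shared start of Slc7a15-202 and Slc7a15-204 (chr12:8539545, 34 dyads) was at 69.3% ± 2.96 and 75.15% ± 5.25, and the groups overlapped there.

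Tiles of other genes with levels most like those of the members across the 5 libraries were sought by the root mean square difference. For *Nck2* they included tiles in *Smg6* (4.11 points) and *Msra* (5.86 points). For *Mast4* they lay in *Peak1* (6.46 points), *Msra* (7.33 points) and *Smg6* (7.69 points). For *Slc7a15* they lay in *Klhl41* (5.59 points), *Bcl2a1a* (6.52 points) and *Ccdc65* (6.598 points). *Bcl2a1a* has near-identical copies, so reads placed there are uncertain.

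The bodies of related genes were tested with edgeR over all gene bodies, of which 15.4% were called higher in *Tet2*-/-. Of 21 NCK adaptors and partners other than *Nck2*, 1 rose, *Nphs1*, which encodes the NCK-binding podocyte protein nephrin (44.7% to 58.3%, edgeR adjusted p = 0.00949). Of 4 MAST kinases other than *Mast4*, 1 rose, *Mast1* (42.3% to 54.9%, edgeR adjusted p = 0.0176). Of 16 SLC7 transporters and their heavy chains other than *Slc7a15*, 3 rose. They were *Slc7a4* by 13.4 points, *Slc7a10*, a neutral amino acid transporter, by 15.02 points, and *Slc3a1*, the heavy chain of the cystine transporter, by 11.7 points (edgeR adjusted p = 0.0171, 0.00334 and 0.000593). The median differences of the lists were 4.26, 3.88 and 6.03 points, beside 4.95 points over all gene bodies. These 5 calls fell to 0 without library 24, where 2 of the 41 bodies had an unadjusted edgeR p under 0.05, and limma called 0 of them, with 6 at an unadjusted p under 0.05. With limma, 5224 of all 20688 gene bodies had an unadjusted p under 0.05, so the 6 related bodies are no excess. Without library 5, 3 of the related bodies were called. Of all gene bodies, 0.406% were called higher without library 24, 2.33% with limma and 8.65% without library 5.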

How the data were processed

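Blasts of 2 *Tet2*+/+ and 3 *Tet2*-/- libraries were profiled by whole-genome bisulfite sequencing (Pico Methyl-Seq, non-directional). The authors trimmed reads with Trim Galore 0.4.3, aligned them to GRCm38 with Bismark 0.19.1 and Bowtie2, removed duplicates, and deposited, for each cytosine on each strand, its counts of methylated and unmethylated reads. Versions are from the submitters' processing notes. FastQC 0.11.7 was used for quality control. Bismark keeps uniquely placed reads, which can lower the number of calls in repeats.

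Both strands of a CpG were summed. A minimum of 20 calls per library was set for tiles and gene bodies (GENCODE vM21), and their counts were fitted with edgeR 4.0.16 (glmQLFit, one coefficient per library), with Benjamini-Hochberg adjustment over all features at 0.05; limma 3.58.1 on log2((methylated + 2)/(unmethylated + 2)) was an alternative. In simulated counts for this comparison the scripts were checked with known changes. Coverage and strand differences were tested by exact permutation with Python 3.11.15 and scipy 1.17.1.

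The members, lists and tests were chosen with earlier results of these data known. Named genes are the 3 members, related genes whose bodies passed (at most 5 per list), tiles most like the members, windows of the gains and beside them, called tiles outside the choosing ones, and *Tet2*. No column of per-sample values was left out. A further similar tile and a further sequence are not reported here.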

Additional observations from a re-analysis of the deposited data

How the results depend on the processing

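No paired analysis was possible because the library numbers of the genotypes (23 and 24, and 5, 7 and 8) are not shared. With 2 and 3 libraries, a single library weighs heavily, and at 2.96 to 5.19 calls per dyad, windows with few CpGs and repeats limit what can be seen. Across 54 alternatives for the 3 gain differences, 45 stayed within the spread between replicates, 9 moved and none changed sign. The genes were chosen on these differences, the window searches admit only gains, and several settings returned the same windows. These counts are therefore no support for the differences. The *Nck2* difference of 72.2 points was 78.3 with 500 bp windows, 66.1 as an unweighted mean of dyads, 64.7 after each library's median tile level was subtracted, and 88.4 with dyad likelihood edges within 20 kb or within 3 kb, where its width was 914 bp in place of 2000. The *Mast4* difference of 55.9 points was 68.0 (width 1000 bp) at a minimum of 40 points, 36.5 on the bottom strand only, and 11.96 (width 1218 bp) with edges within 20 kb, a search that ended at another place in the gene. The *Slc7a15* difference of 64.7 points was 43.2 (width 18225 bp) with edges within 20 kb, and its width was 3128 bp within 3 kb. Within 3 kb and without 1 library, the widths were up to 963 bp in *Nck2* (library 23), 320 bp in *Mast4* (library 23) and up to 3309 bp in *Slc7a15* (library 8). The search within 3 kb was added after seeing the data, as were the strand differences and windows outside the gains (also over the genome) without each library. Leaving out each library in turn gave 70.1 to 73.8 points for *Nck2*, 51.2 to 62.7 for *Mast4* and 58.8 to 70.6 for *Slc7a15*, and a *Mast4* width of 1000 to 2000 bp. The *Nck2* gene body differed by 4.56 points without the windows of the gain, in place of 7.54. Relative coverage of the *Mast4* gain changed sign without library 7 (-0.806, range -0.806 to 14.5 percentage points), that of *Nck2* ran from -35.0 to -14.1 and that of *Slc7a15* from -57.5 to -12.1 percentage points with a library left out, and the *Nck2* strand difference without library 23 (-5.60, range -5.60 to 12.2 points). The count of called tiles of the genes, 10, was 3 with limma after median subtraction, which called 0.0397% of all tiles higher in place of 3.20%, and 4 to 12 with a library left out. These include the tiles that chose the genes. Without those tiles the count of 7 was 0 of 183 with limma after median subtraction (15 at an unadjusted p under 0.05), 4 with limma and 1 to 9 with a library left out. The 5 related bodies became 0 with limma, 0 with limma after median subtraction, and 0 to 5 with a library left out. The shares of all features called higher moved as well. For tiles the share was 1.55% with limma and 1.29%, 2.74% and 4.01% without libraries 5, 7 and 8. For gene bodies it was 2.33% with limma and 0.0242% with limma after median subtraction, in place of 15.4%. Without libraries 5, 7 and 8 it was 8.65%, 10.3% and 16.0% of gene bodies. The cause of these changes was not tested. Without library 24, 84 gene bodies in the genome were called higher, in place of 3181.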
